A study of Mus musculus with 26 samples.

Results

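The Fc gamma receptors of tumour macrophages are described here through 5 genes: the activating receptors Fcgr1, Fcgr4 and Fcgr3, the inhibitory receptor Fcgr2b, and Fcer1g, the signalling chain that the activating receptors share. They were taken by name, as the rows that carry exactly these symbols among the 19549 gene rows of each library. All 5 were measured in each of the 26 libraries and passed the filter on low counts. The study sorted macrophages from 13 mammary tumours that grew from PyMT cells injected into female FVB mice aged 5 to 7 weeks. It sequenced, for each tumour, mRNA on polysomes, taken as the gradient fractions with 3 or more ribosomes, and total mRNA from about 10% of the same sorted cells. Library preparation was by SmartSeq2, which copies whole transcripts into cDNA and keeps no record of the strand.

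The groups are polysome and total mRNA of 5 large tumours, of 1504 to 2245 mg, and of 8 small tumours, of 467 to 841.8 mg. The labels give weights and no size classes, and the division at 1000 mg lies in the gap between them. In the labels' batch 2 stand large tumours 3 to 5, titled LR, and small tumours 6 to 8, titled ER. Batch 1 holds large tumours 1 and 2 and small tumours 1 to 5. All tumours carry the same PyMT cells and the labels name no drug treatment. The sort gate took cells that carried CD11b and F4/80 but not Ly6G, and the cells were kept with cycloheximide, which stalls ribosomes on their messages. The model is therefore 1 transplanted tumour line, with the sort gate as the only definition of a macrophage.

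Fc gamma receptors bind the constant part of IgG antibodies and let macrophages take up or kill antibody-coated cells. The activating receptors carry no activation motif of their own in the mouse and depend on the chain encoded by Fcer1g, both for signalling and for reaching the surface. Fcgr2b carries an inhibition motif in its own tail and restrains that signal through the phosphatase Inpp5d. Macrophages in tumours use these receptors when they engulf tumour cells that a therapeutic antibody has coated.

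The opposing signals of the family are written in a pair of short coding stretches, shown here because they separate the shared chain from the inhibitory receptor. They were read from the GENCODE M21 transcripts (build GRCm38, the same assembly as mm10), 5′ to 3′ on the minus strand, with tyrosine codons in capitals. The activation motif of Fcer1g spans 45 bases in 2 coding blocks within chr1:171229889-171230072, codons 65 to 79 of 86. The inhibition motif of Fcgr2b spans 18 bases at chr1:170961071-170961088, codons 317 to 322 of 340. The inhibition motif was searched as a pattern of residues around a tyrosine in the translated codons of each gene. This pattern also matched 3 times in Fcgr1, once in Fcgr4 and once in Fcer1g, and such a match is a description only.
Fcer1g activation motif: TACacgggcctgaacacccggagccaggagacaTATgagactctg
Fcgr2b inhibition motif: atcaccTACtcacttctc

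Fcgr2b, Fcgr4, Fcgr3 and Fcer1g lie close together on chromosome 1. In the GRCm38 annotation Fcgr2b spans 170958617 to 170976547 and Fcgr4 171018920 to 171029761. Fcgr3 spans 171051174 to 171064935 and Fcer1g 171229572 to 171234365. Fcgr1 stands apart on chromosome 3, at 96282909 to 96293969. Fcgr4 is read from the plus strand and the other genes from the minus strand.

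Fcgr2b and Fcgr3 resemble each other enough to bear on how reads are assigned. Their coding sequences were identical at 81.7% of 756 aligned bases, against 60.4% for Fcgr2b and Fcgr4 and 62.9% for Fcgr3 and Fcgr4. The longest identical run had 129 bases and is shown with 15 bases on either side, in capitals the bases that differ, from chr1:170966659-170968096 (Fcgr2b) and chr1:171054152-171057807 (Fcgr3), each in 2 coding blocks on the minus strand. Of the 50-base windows of the transcripts, 12.3% of those of Fcgr3 and 10.7% of those of Fcgr2b also occurred in another gene, and none of those of Fcgr1, Fcgr4 and Fcer1g did. The 166 shared windows of Fcgr3 were all shared with Fcgr2b. The 395 shared windows of Fcgr2b spread over 146 other genes. Fcgr3 held 166 of them, Gm38204 107, and Gm47409 and Cplx2 98 each. Fcgr2b also overlaps the antisense gene Gm38204 by 155 exon bases, which unstranded reads cannot divide. How reads that fit both genes were counted is not given in the sources used here, so values of Fcgr2b and Fcgr3 carry this uncertainty.
Fcgr2b shared stretch: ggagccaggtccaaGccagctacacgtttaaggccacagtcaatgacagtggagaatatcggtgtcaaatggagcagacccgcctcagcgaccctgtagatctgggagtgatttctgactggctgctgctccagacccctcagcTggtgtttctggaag
Fcgr3 shared stretch: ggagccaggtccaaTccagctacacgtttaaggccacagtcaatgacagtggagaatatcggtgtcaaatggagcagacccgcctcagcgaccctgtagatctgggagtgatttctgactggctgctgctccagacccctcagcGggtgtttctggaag

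Total counts per library were 7034173 to 28257436 for polysomes and 18018519 to 55609113 for total mRNA. The 5 genes together took 0.0486 to 0.512% of the counts of a polysome library and 0.134 to 0.643% of those of a total mRNA library. Both lowest shares belong to small tumour 7. All 10 macrophage markers had counts in each of the 26 libraries, but their summed level in small 7 was only 2540 CPM in polysomes and 7402 CPM in total mRNA. Across the large tumours it was 15446 to 32344 CPM in polysomes and 12212 to 28582 CPM in total mRNA, and the highest small tumour reached 23627 CPM in polysomes and 28947 CPM in total mRNA. Small 7 also had the highest sums of 8 fibroblast markers, 2655 CPM in polysomes and 3433 CPM in total mRNA, and of 8 epithelial markers, 911 CPM in polysomes and 4007 CPM in total mRNA. Next in fibroblast markers was small 1, with 643 CPM in polysomes and 2119 CPM in total mRNA. In bulk RNA, fewer cells of a type and less RNA per cell cannot be told apart, and the part of other cells in the results was not tested. Several results are also given without small 7. Among those given only with it are the members' size folds in polysome association and the tests of member pairs.

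Markers of other cells that carry Fc receptors, or that the gate could hold, were present at levels that differed by list. The 10 neutrophil markers summed to at most 447 CPM in polysomes and 233 CPM in total mRNA. Most of this was Csf3r, a growth factor receptor of neutrophils, at an average of 170 CPM in polysomes and 80.8 CPM in total mRNA, while Ltf averaged 8.10 CPM and S100a8 5.46 CPM in polysomes. Ly6g, the neutrophil gene against which the cells were gated, averaged 0.0159 CPM in polysomes and 0.0137 CPM in total mRNA. The 8 monocyte markers summed to at most 197 CPM in polysomes and 497 CPM in total mRNA, and the 8 dendritic cell markers to at most 138 CPM in polysomes and 39.6 CPM in total mRNA. The 8 natural killer markers summed to at most 19.3 CPM in polysomes and 15.2 CPM in total mRNA. The 8 B cell markers summed to at most 42.4 CPM in polysomes and 126 CPM in total mRNA, and the 8 mast cell and basophil markers to at most 13.1 CPM in polysomes and 73.9 CPM in total mRNA. Cd79b, part of the B cell receptor, averaged 18.5 CPM in polysomes and 31.6 CPM in total mRNA. Pax5, Camp and Mcpt8, defining genes of B cells, neutrophils and basophils, were at 0 in all polysome libraries, but other members of their lists were not. The neutrophil and monocyte sums reach the levels of Fcgr1 and Fcgr4 in some libraries. Other lists also passed Fcgr4 in some libraries. B cell markers had 126 CPM against 74.3 CPM of Fcgr4 in total mRNA of large 3. Dendritic cell markers had 138 against 69.7 CPM in polysomes of small 3. Mast cell and basophil markers had 73.9 against 20.7 CPM in total mRNA of small 7. The part of these cells in the members' levels was not tested.

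The chain and the low-affinity receptor Fcgr3 were the most abundant messages of the family. CPM are read counts scaled to a common library total, here after TMM, which corrects for a few genes that take many reads. Levels between genes are compared as CPM per kilobase of merged exons (CPM per kb). In polysomes Fcer1g averaged 1582 ± 876, Fcgr3 1045 ± 478, Fcgr2b 216 ± 108, Fcgr1 53.5 ± 26.2 and Fcgr4 37.7 ± 14.3 CPM per kb (SD, n = 13). In total mRNA the averages were 2039 ± 878 for Fcer1g, 1073 ± 396 for Fcgr3, 314 ± 116 for Fcgr2b, 140 ± 42.9 for Fcgr1 and 83.8 ± 47.8 for Fcgr4 (CPM per kb, SD, n = 13). The order of the averages was the same in both kinds of mRNA, and each of the 8 comparisons of neighbours passed an exact sign-flip test over tumours, 5 of them with the same order in 13 of 13 tumours. The closest neighbours were Fcgr1 and Fcgr4 in polysomes, where Fcgr1 was higher in 11 of 13 tumours by 0.41 ± 0.53 log2 units (SD, exact test, two-sided, p = 0.0171, adjusted p = 0.0171 over 8 comparisons). Fcer1g exceeded Fcgr3 in polysomes in 11 of 13 tumours, by 0.56 ± 0.57 log2 units (same exact test, p = 0.00513, adjusted p = 0.00586). In both of these the mean gap was smaller than its SD between tumours. The division by length sets the order of Fcer1g and Fcgr3 in polysomes, where they averaged 1183 and 1407 CPM before it. The neighbours were ranked on the same 13 tumours, and these tests carry no uncertainty of transcript length.

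**Figure D1:**
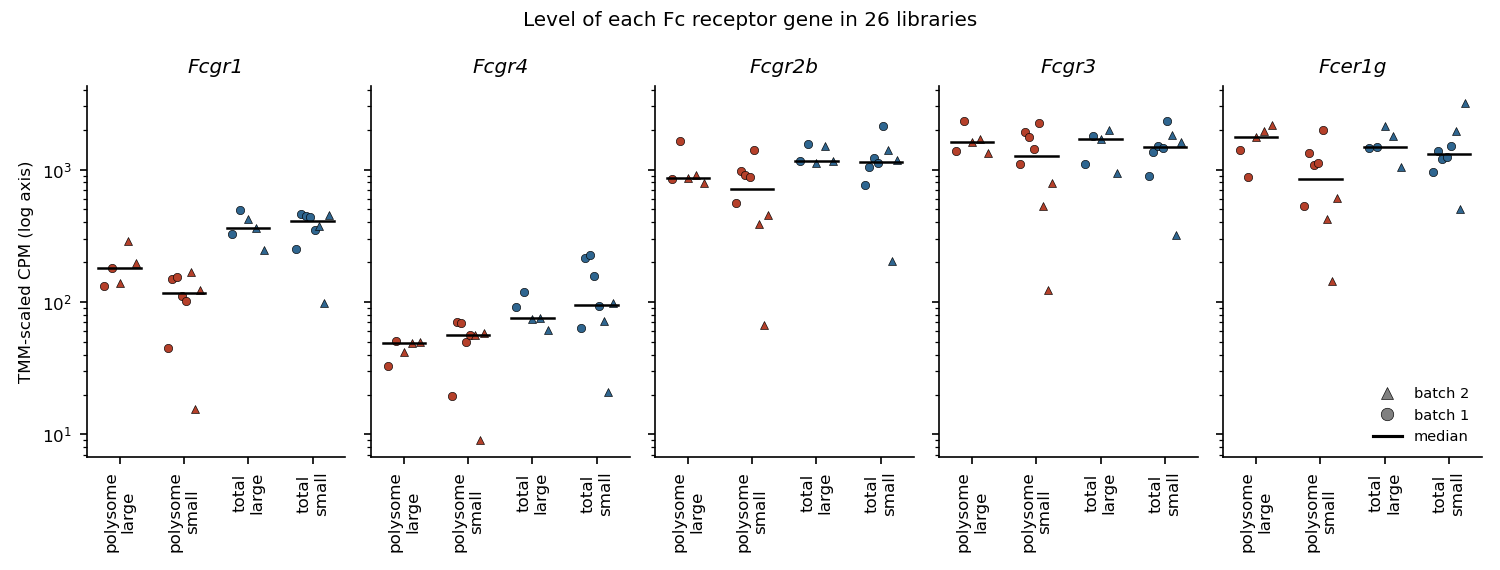
Level of each gene (TMM-scaled CPM, log axis) in polysome and total mRNA of large and small tumours, 1 point per library, triangles for batch 2 and circles for batch 1, with the group median as a line. The medians of Fcgr1 and Fcgr4 are lower in polysomes than in total mRNA in large and small tumours, and small tumour 7 is the lowest point of each small-tumour column.

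Each member was then set against the other genes from tumour to tumour. After each batch's mean was subtracted, the genes most like each member were sought among 7810 genes over the 13 total mRNA libraries, with Pearson's r as a description and no test, since the libraries also share cell makeup and depth. Fcer1g was most like C1qa (r = 0.98), a complement gene of macrophages, followed by Coro1a (0.97) and Tyrobp (0.97), which encodes a sister adaptor chain. Fcgr2b was most like Hcst (0.97), the gene of a further adaptor, then Tmem37 (0.96) and Fcgr3 (0.95). Fcgr3 was most like Tmem37 (0.98), Clec4n (0.97), the gene of a fungal receptor that signals through the Fcer1g chain, and Trem2 (0.96). Fcgr1 was most like Ntpcr (0.98), and Fcgr4 was most like Prdx5 (0.91), with Fcgr1 also among its 5 nearest genes (0.89). Without small 7 these values lay between 0.79 and 0.96 over the remaining 12 tumours.

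The first comparison asks whether each message was found on polysomes, here fractions with 3 or more ribosomes, in proportion to its total level, tumour by tumour. The members differ in coding length, from 86 codons for Fcer1g and 249 for Fcgr4 to 404 for Fcgr1, and the part of this length was not tested. Fcgr1, the high-affinity receptor, and Fcgr4 fell on polysomes, with lower values than in total mRNA in each of the 13 tumours. Fcgr2b and Fcer1g were lower to a smaller extent, and Fcgr3 was not called. In all, 4 of 5 members were called lower (edgeR quasi-likelihood test, paired by tumour, adjusted p below 0.05), against 32.5% of the 13395 genes tested, and none was called higher, against 21.0% (53.5% of genes in either direction). The median fold of all genes was -0.48 on the log2 scale, and the members are read against it. This median depended on the filter, at -0.86 with none and -0.093 with a floor of 10 CPM on a gene's average. All 5 members pass that floor. With it their folds were -1.52 for Fcgr1, -1.06 for Fcgr4, -0.64 for Fcgr2b, -0.52 for Fcer1g and -0.14 for Fcgr3.

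Fcgr1, which binds single IgG molecules with high affinity, had 131, 182, 138, 289 and 196 CPM in polysomes of large 1 to 5. In the 8 small tumours' polysomes the lowest, median and highest were 15.5, 118 and 168 CPM. Total mRNA had 327, 491, 419, 362 and 246 CPM in large 1 to 5, and 98.2, 408 and 458 CPM as lowest, median and highest of the small tumours. Polysomes were lower than total mRNA in each of the 13 tumours, and the large tumours' polysome and total values overlapped, since large 4 had more in polysomes than large 5 had in total mRNA. The fold was -1.55 ± 0.18 on the log2 scale (SE, edgeR adjusted p = 1.64e-08), and 25.1% of genes had a lower one.

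Fcgr4, a receptor for IgG2a and IgG2b in the mouse, was the least abundant member. Polysomes had 33.0, 50.5, 42.0, 48.7 and 50.1 CPM in large 1 to 5, and 9.06, 56.5 and 71.0 CPM as lowest, median and highest of the small tumours. Total mRNA had 92.2, 120, 74.3, 75.2 and 61.7 CPM in large 1 to 5, and 20.7, 95.6 and 226 CPM across the small tumours. In large tumours each polysome value lay below each total value, while in small tumours the ranges overlapped. The fold was -1.09 ± 0.18 (log2, SE, edgeR adjusted p = 3.71e-06), with polysomes lower in 13 of 13 tumours. A lower fold was found for 35.1% of all genes tested. Of all genes tested, 9.79% were lower on polysomes in each tumour, as Fcgr1 and Fcgr4 were.

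Fcgr2b, the inhibitory receptor, had 848, 1642, 861, 904 and 794 CPM in polysomes of large 1 to 5, and 66.6, 716 and 1408 CPM as lowest, median and highest of the small tumours. Total mRNA had 1162, 1567, 1119, 1501 and 1151 CPM in large 1 to 5, and 204, 1147 and 2123 CPM across the small tumours. Polysomes were lower in 12 of 13 tumours, large 2 being the exception. The fold was -0.67 ± 0.16 (log2, SE, edgeR adjusted p = 0.000757), and 44.7% of all genes tested had a lower one. With the 10 CPM floor it was -0.64 (edgeR adjusted p = 0.000521), against a median of -0.093. The nearness of Fcgr2b to the median of all genes therefore depends on the filter.

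Fcer1g, the shared chain, had 1411, 871, 1755, 1958 and 2179 CPM in polysomes of large 1 to 5, and 144, 847 and 1979 CPM as lowest, median and highest of the small tumours. Total mRNA had 1448, 1481, 2122, 1794 and 1041 CPM in large 1 to 5, and 505, 1315 and 3185 CPM across the small tumours. Polysomes were lower in 10 of 13 tumours, and the ranges overlapped widely. The fold of -0.55 ± 0.21 (log2, SE) passed the threshold by little (edgeR adjusted p = 0.0279). It was not called without small 6, 7 or 8 (-0.41, -0.40 and -0.39, adjusted p = 0.112, 0.129 and 0.111). A lower fold than that of Fcer1g was found for 48.1% of all genes tested. With the 10 CPM floor Fcer1g had -0.52, against a median of -0.093.

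Fcgr3, the low-affinity activating receptor, had 1388, 2327, 1613, 1711 and 1342 CPM in polysomes of large 1 to 5, and 122, 1265 and 2254 CPM as lowest, median and highest of the small tumours. Total mRNA had 1099, 1792, 1694, 1996 and 942 CPM in large 1 to 5, and 323, 1470 and 2339 CPM across the small tumours. The ranges overlapped nearly whole, and 7 of 13 tumours were lower in polysomes. Its fold was -0.18 ± 0.17 (log2, SE, edgeR adjusted p = 0.404), and 57.9% of all genes tested had a lower one.

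**Figure D2:**
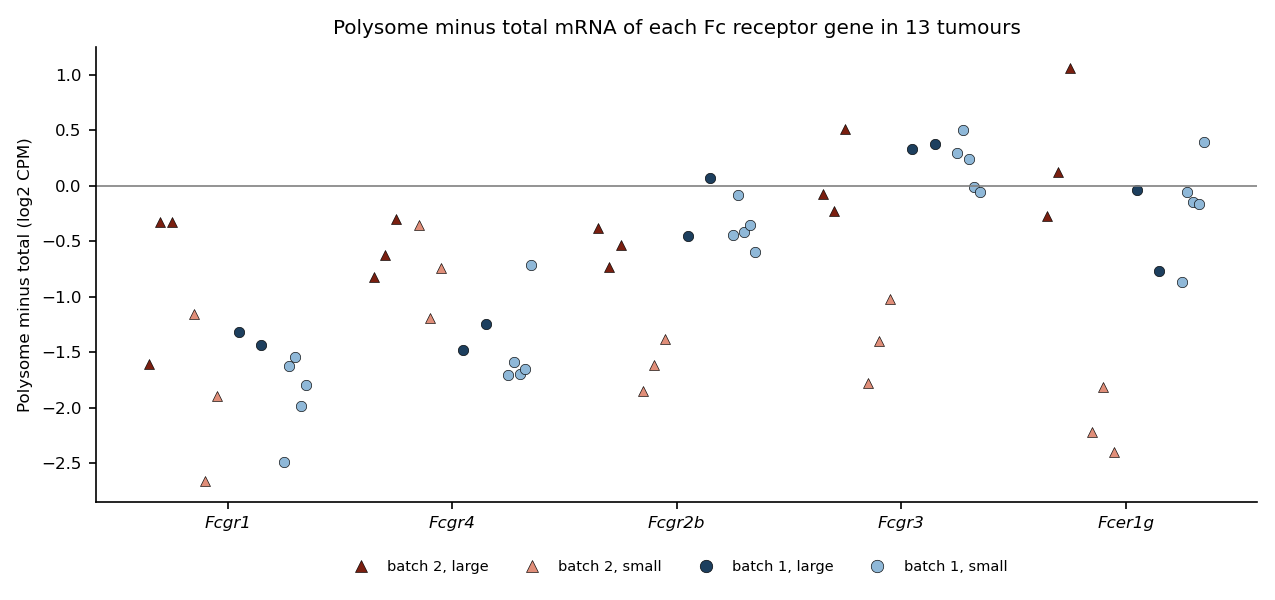
Difference of log2 CPM between the polysome and the total library of each tumour (prior count 1), 1 point per tumour, by batch and size class; the grey line marks no difference. Fcgr1 and Fcgr4 lie below 0 in all 13 tumours, and the 3 small tumours of batch 2 lie at -1.02 or lower for Fcgr2b, Fcgr3 and Fcer1g.

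The picture differed between the batches. In batch 2 alone the folds were -1.32 for Fcgr1, -0.66 for Fcgr4, -1.07 for Fcgr2b, -0.91 for Fcer1g and -0.65 for Fcgr3. In batch 1 alone they were -1.68 for Fcgr1, -1.38 for Fcgr4, -0.27 for Fcgr2b, -0.17 for Fcer1g and 0.30 for Fcgr3. The medians of all genes tested in these fits were -0.16 in batch 2 and -0.49 in batch 1. Fcgr1 was called in both batches (adjusted p = 0.00689 in batch 2 and 2.96e-07 in batch 1). Fcgr4 was called in batch 1 (adjusted p = 8.23e-06) but not in batch 2 (0.0794), while Fcgr2b and Fcer1g were called in batch 2 (0.00711 and 0.0244) but not in batch 1 (0.208 and 0.449). Fcgr3 was called in neither (0.0715 in batch 2 and 0.156 in batch 1), and its direction differed.

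The difference itself was tested as batch 2 against batch 1 in the paired fit. Fcgr3 was the 1 member called, with a difference of -1.08 ± 0.35 (log2, SE, edgeR adjusted p = 0.033), against 6.12% of genes called lower and a median of 0.36 over all genes. Fcer1g differed by -0.95 ± 0.43 (adjusted p = 0.143), Fcgr2b by -0.89 ± 0.33 (0.0664), Fcgr4 by 0.74 ± 0.36 (0.168) and Fcgr1 by 0.24 ± 0.37 (0.733). The call for Fcgr3 was lost without small 2, 3, 4, 6 or 7, with differences between -1.09 and -0.89.

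For Fcgr3, Fcer1g and Fcgr2b the lowest values of batch 2 were those of its small tumours. For Fcgr3 the difference of polysome minus total was -0.071, -0.22 and 0.51 in large 3 to 5 and -1.77, -1.40 and -1.02 in small 6 to 8. For Fcer1g it was -0.27, 0.13 and 1.06 in large 3 to 5 and -2.21, -1.81 and -2.39 in small 6 to 8. For Fcgr2b it was -0.38, -0.73 and -0.54 in large 3 to 5 and -1.85, -1.62 and -1.38 in small 6 to 8. For these genes each large tumour of batch 2 lay above each small tumour of batch 2, as in 8.47% of all genes. In batch 1 the values of the 2 large tumours and the 5 small tumours overlapped for Fcgr2b, Fcgr3, Fcer1g and Fcgr4, while both large tumours lay above each small tumour for Fcgr1, as in 5.96% of all genes. Fcgr1 and Fcgr4 overlapped between the size classes of batch 2. Total mRNA of small 6, 7 and 8 held 1824, 323 and 1610 CPM of Fcgr3 and 1956, 505 and 3185 CPM of Fcer1g. What lies behind the low values of these small tumours was not tested.

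Within a tumour the members can be set against each other, which removes a factor common to all genes of a library. Effects of a library that differ from gene to gene remain. Of 10 pairs compared, 6 differed in polysome minus total at an adjusted p below 0.05 (exact sign-flip test over 13 tumours, two-sided, adjusted over the 10 pairs). Fcgr1 lay below Fcgr3 in 12 of 13 tumours, and Fcgr1 minus Fcgr3 was -1.37 ± 0.90 (log2, SD, exact test, adjusted p = 0.00366), with means of -0.67 in batch 2 and -1.98 in batch 1. Fcgr1 minus Fcer1g was -0.9996 ± 0.92 and Fcgr1 minus Fcgr2b -0.87 ± 0.84 (exact test, adjusted p = 0.0128 for each), and Fcgr1 minus Fcgr4 was -0.46 ± 0.58 (adjusted p = 0.0264, exact test). The first of these was -0.41 in batch 2 and -1.50 in batch 1. Fcgr1 minus Fcgr2b was -0.25 in batch 2, with Fcgr1 lower in 3 of 6 tumours, and -1.41 in batch 1, with Fcgr1 lower in 7 of 7. Fcgr1 minus Fcgr4 was -0.65 in batch 2 and -0.30 in batch 1. Fcgr3 lay above Fcgr4 by 0.91 ± 1.08 (exact test, adjusted p = 0.0264), by a mean of 0.011 in batch 2 and 1.68 in batch 1. Not called were Fcgr3 and Fcer1g (0.37 ± 0.61, exact test, adjusted p = 0.068), Fcgr4 and Fcer1g (-0.54 ± 1.18, 0.156), Fcgr2b and Fcgr4 (0.41 ± 0.95, 0.156) and Fcgr2b and Fcer1g (-0.13 ± 0.73, 0.55). Of these, 2 had opposite directions in the batches. Fcgr2b minus Fcgr4 was -0.41 in batch 2, lower in 5 of 6 tumours, and 1.11 in batch 1, lower in 0 of 7. Fcgr4 minus Fcer1g was 0.24 in batch 2, lower in 3 of 6 tumours, and -1.21 in batch 1, lower in 7 of 7.

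The steadiest pair was the inhibitory Fcgr2b and the activating Fcgr3. Fcgr2b lay below Fcgr3 in polysome minus total in 13 of 13 tumours, and Fcgr2b minus Fcgr3 was -0.50 ± 0.27 log2 units (SD, exact test, p = 0.000244, the smallest that 13 tumours allow, adjusted p = 0.00244). In plain counts there were 1.73 ± 0.19 Fcgr3 reads per Fcgr2b read in polysomes, against 1.24 ± 0.21 in total mRNA (SD, n = 13). The lowest, median and highest ratios were 1.38, 1.75 and 1.96 in polysomes and 0.819, 1.29 and 1.58 in total mRNA. The ratio was 1.41-fold higher in polysomes, at 1.34-fold in batch 2 (6 of 6 tumours, exact p = 0.0312) and 1.48-fold in batch 1 (7 of 7, exact p = 0.0156). Those are the smallest p-values that 6 and 7 tumours allow. This ratio was singled out after its values were seen, and the reads that fit both genes, described above with their shared stretch, may fall to either.

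**Figure D3:**
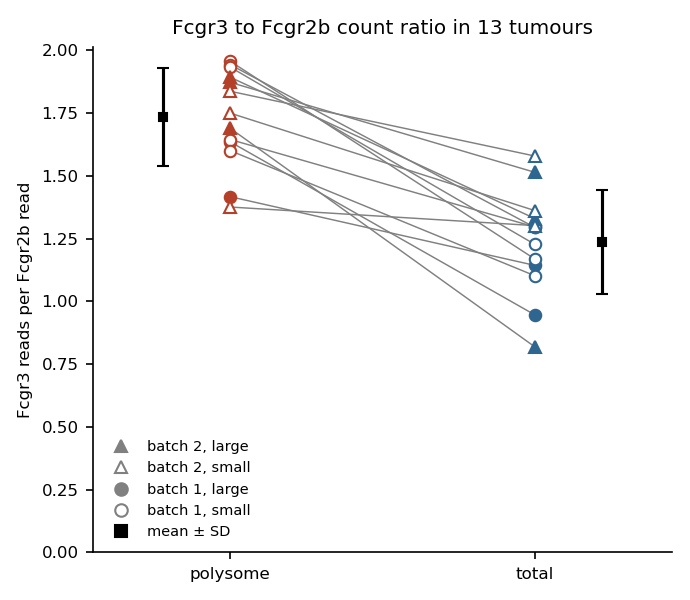
Fcgr3 reads per Fcgr2b read in polysome and total mRNA of each tumour, joined by a line, filled for large and open for small tumours, triangles for batch 2 and circles for batch 1; black squares and bars are mean ± SD over 13 tumours. All 13 lines run higher on the polysome side, with means of 1.73 and 1.24.

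Fcgr2b and Fcgr3 also moved together in polysome minus total from tumour to tumour, each batch centred on its mean. Fcgr3 was the gene most like Fcgr2b (r = 0.92 over 13 tumours, 0.90 without small 7), while Srd5a3 (0.92) and Cdk4 (0.92) were as close to Fcgr3. Fcer1g was most like Litaf (0.96), Krtcap2 (0.95) and the interferon-induced Ifitm2 (0.95) and Ifitm3 (0.94). Fcgr1 was most like Ptrh2 (0.92) and Fcgr4 was most like Gtf2h5 (0.91). These are descriptions over 13 values that share depth and cell makeup.

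The study's own question was whether translation in these macrophages differs with tumour size. No gene was called for size by edgeR in total mRNA, in polysome mRNA or in polysome association (0.00% of genes in each). At an unadjusted p below 0.05 stood 1493 genes (12.4%) for polysome mRNA, 643 genes (4.92%) for total mRNA and 1408 (10.5%) for association. DESeq2 called 89 genes higher and 60 lower in large tumours in polysome mRNA, 93 higher and 51 lower in association and 0 in total mRNA, and voom called 0 in each. None of the 5 members was among those DESeq2 called, its lowest adjusted p for a member being 0.0867, for Fcer1g in polysome mRNA.

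In polysome mRNA no member was called for size. The folds were 1.31 ± 0.53 for Fcer1g (log2, SE, unadjusted p = 0.0213, edgeR adjusted p = 0.323), 1.02 ± 0.43 for Fcgr2b (0.0258 and 0.34), 1.02 ± 0.45 for Fcgr3 (0.035 and 0.367) and 0.81 ± 0.44 for Fcgr1 (0.0798 and 0.461). Fcgr4 had -0.033 ± 0.41 (0.937 and 0.989). The folds in batch 2 alone were 2.31 for Fcer1g, 1.47 for Fcgr2b, 1.66 for Fcgr3, 1.004 for Fcgr1 and 0.16 for Fcgr4. In batch 1 alone they were -0.10 for Fcer1g, 0.38 for Fcgr2b, 0.12 for Fcgr3, 0.46 for Fcgr1 and -0.37 for Fcgr4, and none was called in either batch. Of all genes, 6.71% had an unadjusted p below 0.05 and a higher level in large tumours, as Fcer1g, Fcgr2b and Fcgr3 did. Without small 7 the folds were 0.86 for Fcer1g, 0.68 for Fcgr2b, 0.64 for Fcgr3, 0.50 for Fcgr1 and -0.33 for Fcgr4.

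In total mRNA the folds for size were small beside their errors. They were 0.27 ± 0.40 for Fcgr2b, 0.10 ± 0.40 for Fcgr3, 0.080 ± 0.34 for Fcgr1, -0.018 ± 0.37 for Fcer1g and -0.19 ± 0.40 for Fcgr4 (log2, SE, edgeR adjusted p = 0.924 or higher). Without small 7 the folds of Fcgr1 and Fcgr3 changed sign, to -0.14 and -0.15.

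Polysome association, the difference of polysome and total mRNA between size classes, had folds of 1.14 ± 0.45 for Fcer1g (log2, SE, unadjusted p = 0.0155, edgeR adjusted p = 0.361), 0.83 ± 0.38 for Fcgr1 (0.0358 and 0.452) and 0.83 ± 0.36 for Fcgr3 (0.0281 and 0.429). Fcgr2b had 0.64 ± 0.34 (0.0717 and 0.523) and Fcgr4 0.15 ± 0.37 (0.693 and 0.941). Of all genes, 5.96% had an unadjusted p below 0.05 in this direction, and the median over all genes was -0.040. The Fcer1g fold was 2.39 ± 0.55 in batch 2 (adjusted p = 0.261) and -0.21 ± 0.42 in batch 1 (adjusted p = 1, with 2 large tumours). The difference between these batches was 2.68 ± 0.72 (log2, SE, edgeR adjusted p = 0.298), with no gene called for such a difference and 903 at an unadjusted p below 0.05. For Fcgr3 the folds were 1.42 ± 0.52 in batch 2 and 0.18 ± 0.39 in batch 1, a difference of 1.31 ± 0.67 (adjusted p = 0.762).

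**Figure D4:**
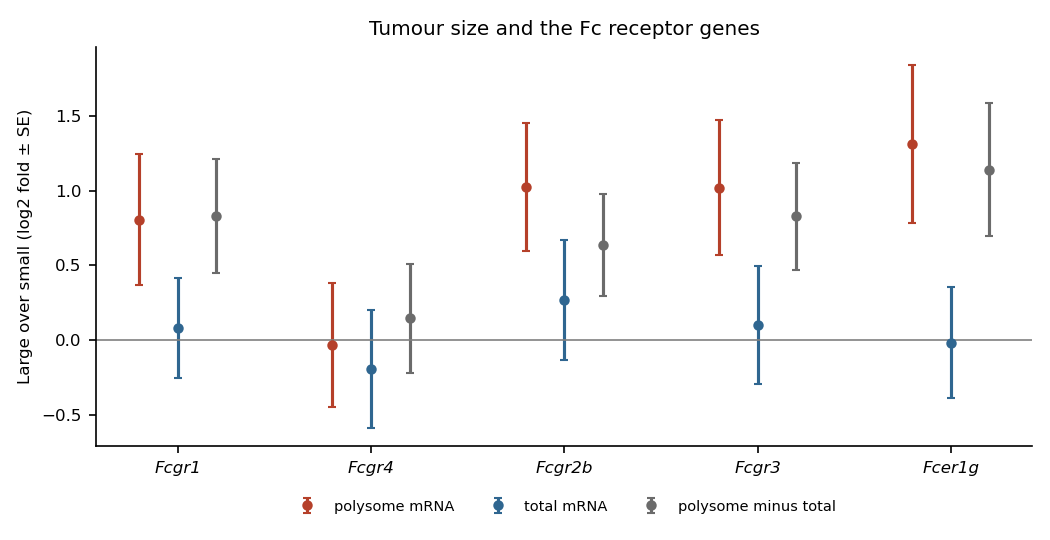
Large over small tumours as log2 fold ± SE from edgeR for each gene in polysome mRNA, total mRNA and their difference; 0 means no difference. Folds for polysome mRNA are 0.81 to 1.31 for Fcgr1, Fcgr2b, Fcgr3 and Fcer1g and -0.033 for Fcgr4, and those for total mRNA lie between -0.19 and 0.27; none was called.

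The genes around the receptors were set beside them in polysome against total mRNA, by lists chosen for their roles. Over all genes tested, 32.5% fell and 21.0% rose, and the counts of each list are read against these shares. Of 8 other Fc receptor genes tested, 5 fell on polysomes and 0 rose, with a median fold of -1.81. Fcrls, an Fc receptor-like gene of macrophages and microglia, had 334 ± 238 CPM in polysomes and 1375 ± 791 CPM in total mRNA (SD, n = 13) and fell by 2.09 on the log2 scale. Trim21, the cytosolic antibody receptor, fell by 1.15, and Fcgrt, the neonatal Fc receptor, was not called (-0.27, edgeR adjusted p = 0.23). Both Fcrls and Trim21 were lower in 13 of 13 tumours. The other 3 that fell averaged under 10 CPM, and without small 7 the count was 3.

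Among 8 genes of receptors and adaptors that pair with the Fcer1g chain or its relatives, 5 fell and 1 rose. Clec4a2, an inhibitory lectin receptor placed here as a relative, fell by 1.40, but had -0.22 in batch 2 and -2.36 in batch 1, a difference of 2.03 (edgeR adjusted p = 0.00179). Pira6, an activating immunoglobulin-like receptor, fell by 0.89. Hcst, an adaptor, rose by 1.11 ± 0.23 (log2, SE, edgeR adjusted p = 0.000114), with 45.4 ± 29.2 CPM on polysomes and 19.5 ± 7.17 CPM in total mRNA (SD, n = 13). Its fold was 1.95 in batch 2 and 0.46 in batch 1, a difference of 1.54 (edgeR adjusted p = 0.0209). Tyrobp, which pairs with many myeloid receptors, was called lower at -0.54, close to the -0.55 of Fcer1g.

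Downstream of the activating receptors, 9 of 22 genes fell and 9 rose, with a median fold of -0.015. Lyn, a Src family kinase that phosphorylates the activation motif, fell by 1.496, with -0.84 in batch 2 and -1.997 in batch 1 (edgeR adjusted p of the difference 0.0239), and the phospholipase gene Plcg2 fell by 1.68. Syk, the kinase that docks on the motif, rose by 0.93 (edgeR adjusted p = 6.08e-05); it was named after its values were seen.

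On the inhibitory side, 10 of 17 genes fell and 4 rose, with a median fold of -0.88. Ptpn6, a phosphatase that inhibitory receptors recruit, fell by 1.48, Lilrb4a, an inhibitory receptor, fell by 1.502 and the inhibitory lectin receptor Clec12a fell by 1.66. All 3 differed between the batches. Ptpn6 had -2.09 in batch 2 and -0.89 in batch 1 (edgeR adjusted p of the difference 0.0212), and Lilrb4a had -2.11 in batch 2 and -0.92 in batch 1 (0.0362). Clec12a had -0.24 in batch 2 and -2.79 in batch 1 (0.000214). Inpp5d, the phosphatase that Fcgr2b recruits, rose by 0.95 (edgeR adjusted p = 0.000895), with 697 CPM in polysomes and 377 CPM in total mRNA; it too was named after its values were seen.

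In the machinery of uptake, 10 of 20 genes of the phagocytic actin list fell and 5 rose, with a median of -0.42. All genes tested had -0.48, a median that moved to -0.093 with the 10 CPM floor. Arpc1b, a subunit of the actin-branching complex, fell by 2.27 and the GTPase gene Cdc42 fell by 1.95, with -0.99 in batch 2 and -2.71 in batch 1 (edgeR adjusted p of the difference 0.000996). The GTPase gene Arf6 rose by 3.14 ± 0.27 (log2, SE, edgeR adjusted p = 1.88e-10), with 339 ± 106 CPM on polysomes and 54.6 ± 79.5 CPM in total mRNA (SD, n = 13). Of the 5 NADPH oxidase subunits, which make the oxidative burst that receptors trigger, 3 fell and 1 rose. Among them Cybb fell by 1.96 and Ncf4 fell by 1.003. The macrophage markers, 6 lower and 1 higher of 10, had a median of -0.47, close to the -0.48 of all genes tested. Their fold was negative in 7 and positive in 3. The 3 named by the lowest p were Cd14 (-1.47), Aif1 (-1.45) and Adgre1 (-1.31). In the size comparisons no gene of any of these lists was called by edgeR.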

How the data were processed

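RNA was measured in 26 libraries from 13 tumours. The build mm10 and the tools HISAT, HISAT2 and limma are named in the submitters' processing notes. How reads were counted, with which annotation and strand setting, is not given in the sources used here. Per library the authors deposited whole-number read counts for 19549 gene rows and, for 10472 of them, log2 values, which equal log2(count + 0.5) plus 1 constant per library (largest deviation 1.01e-13). The deposited counts were used for all tests. In 830 rows the authors joined several gene names, and 0 of these hold a member.

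After filterByExpr and TMM scaling, edgeR 4.0.16 (R 4.3.3) was run in its robust quasi-likelihood form, with Benjamini-Hochberg adjustment over all genes and a threshold of 0.05. The scripts were tested on simulated data. Polysome against total mRNA, and its difference by size and by batch, came from 1 paired fit of all 26 libraries, blocked by tumour. The pairing is that of the labels, which take both libraries of a tumour from the same sorted cells. After group means were removed, a tumour's paired libraries correlated at a median of 0.209 (lowest 0.0274), and libraries of different tumours at -0.0118. Size was also tested within each kind of mRNA with batch as a term. No replicates were duplicates (lowest chi-square per gene between replicates 46.0). P-values measure the spread between tumours. Values per tumour used a prior count of 1. Single values across tumours used exact sign-flip tests that ran through all flips, and scipy 1.17.1 adjusted their p-values.

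Named list genes were up to 3 per list with the lowest p in polysome against total mRNA and a mean of at least 10 CPM; some genes under this rule are not reported here. Members, lists and tests were chosen with earlier results of these data known. Gene models are those of GENCODE M21. Alternatives were RLE and upper-quartile scaling, other filters, DESeq2 1.42.0, voom (limma 3.58.1), single batches, no batch term, no block, tumour weight and leaving out each tumour.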

Additional observations from a re-analysis of the deposited data

Results flagged for a closer look

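In small tumour 7 several members stood far below the other small tumours. Fcgr1 in total mRNA was 98.2 CPM there, Fcgr2b in polysomes 66.6 CPM and Fcgr2b in total mRNA 204 CPM, each the lowest of 8 small tumours by a gap that passes Dixon's 95% limit. The same tumour had the lowest macrophage marker sum, 2540 CPM in polysomes and 7402 CPM in total mRNA, and the highest sums of fibroblast and epithelial markers, whose part in these values was not tested.

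Fcgr2b in polysomes of large 2 was 1642 CPM, set apart upward from the other large tumours by the same limit. With 34 groups examined, chance alone flags about 1 in 20.

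The difference of polysome and total mRNA for Fcgr3 was lower in batch 2 than in batch 1, with batch 2 minus batch 1 at -1.08 on the log2 scale. It was the 1 member for which the test between batches was passed.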

How the results depend on the processing

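Fcgr1 was called lower on polysomes under all alternatives run, at -1.68 to -1.32, and Fcgr4 under all but batch 2 alone (-0.66). Fcgr2b was not called in batch 1 alone (-0.27). Fcer1g was not called with RLE scaling (-0.48), in batch 1 alone (-0.17), without a batch term (-0.55, adjusted p = 0.0778) or without small 6, 7 or 8. Leaving out each tumour gave Fcer1g -0.65 to -0.39. Fcgr3 changed sign in batch 1 alone (0.30) and was called under no alternative. With batch 2 alone 1690 genes were called higher and 1916 lower, against 2897 and 4021 with batch 1 alone, for causes not tested. Without the replicate block, Fcer1g had -0.44 (adjusted p = 0.197) on polysomes and the batch difference of Fcgr3 -1.09 (0.245), neither called; the block changed no other call of a member.

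For the difference between batches, Fcgr2b was called with RLE scaling (-1.01), a mean of at least 10 CPM (-0.90), DESeq2 (-1.01), voom (-0.88) and without large 5, and its leave-one-out range was -1.07 to -0.77. That range was -1.31 to -0.69 for Fcer1g, called without large 2 or large 5, and -1.27 to -0.89 for Fcgr3. DESeq2 called 1434 genes lower. Leaving out tumours gave 836 to 1315 genes higher and 529 to 935 lower, with the fewest without small 6.

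For size no member was called under any alternative. In total mRNA, values that changed sign were Fcgr4 with voom (0.042) and in batch 2 alone (0.084), Fcer1g with voom (0.15), in batch 1 alone (0.20) and without a batch term (0.029), Fcgr3 in batch 1 alone (-0.080), and Fcgr1 without a batch term (-0.0063) and by log2 weight (-0.016). Leave-one-out ranges there were -0.14 to 0.25 for Fcgr1, -0.15 to 0.24 for Fcgr3 and -0.22 to 0.29 for Fcer1g. In polysome mRNA Fcgr4 changed sign with voom (0.28), in batch 2 alone (0.16) and when tumours were left out (-0.33 to 0.14), and Fcer1g in batch 1 alone (-0.10). In association Fcer1g changed sign in batch 1 alone (-0.21). DESeq2 called 89 genes higher and 60 lower in polysome mRNA and 93 higher and 51 lower in association. Without a filter 3 genes were higher in polysome mRNA and 8 in association, and by log2 weight 1 in polysome mRNA. Leaving out tumours gave 0 to 40 genes higher and 0 to 3 lower in polysome mRNA, the most without small 5, and 0 to 5 higher in association. The causes were not tested.

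The Fcgr3 to Fcgr2b ratio had leave-one-out values of 0.45 to 0.53 (log2). Its direction could not change there, since it was higher in polysomes in 13 of 13 tumours. The size by batch terms, the lengths of principal transcripts and the ratio were added after seeing the data. Adding joined rows gave no value, since 0 of them hold a member. Counting error comes on top of how reads shared by Fcgr2b and Fcgr3 were assigned.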
